A study of Mus musculus with 12 samples.

Results

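The genes described here are those of sugar breakdown and of the response to low oxygen, read in mouse pluripotent cell lines and in the embryonic tissue they stand for. A list of 37 genes named the glucose and lactate carriers, the glycolytic enzymes, the kinases that steer their flux, the oxygen sensors and a set of genes that the hypoxia-inducible factor switches on. Each gene was read from the probe set annotated with its symbol alone, and from the one with the highest mean signal where there were several. That left 33 measured genes out of the 22180 genes of the arrays: 4 carriers, 14 enzymes, 4 flux regulators, 3 oxygen sensing genes and 8 hypoxia targets. Gpi1 and Eno1 had no probe set of their own, and Aldoa and Ankrd37 were found only in a probe set shared with another symbol, so these 4 have no value.

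RNA was measured on 12 arrays, 2 for each of 6 groups. Embryonic stem cells (ESC) came from embryos of day E3.5 and were kept on feeder fibroblasts in N2B27 medium with 3 µM CHIR99021, 1 µM PD0325901 and LIF. Epiblast stem cells (EpiSC) came from E5.75 embryos and were grown with 12 ng/ml FGF2, 20 ng/ml Activin-A and 20% knockout serum replacement (KSR). The lines called rsEpiSC in the titles, which other label fields call by another name, were derived from embryos of either day E5.75 or day E6.5 and were grown with 2.5 µM IWR1, an inhibitor of Wnt signalling, and 20 ng/ml of a factor that the labels leave unnamed. Epiblast tissue, the layer of the embryo that forms the body, was taken uncultured on the same days, E5.75 or E6.5. All 12 arrays, tissue included, carry the label of a cross to C57BL of a reporter line in which part of the Oct4 enhancer drives green fluorescent protein (OCT4-deltaPE-GFP). The substrain reads C57BL/6 for ESC and EpiSC, and on the other arrays its number counts up from 7 to 14. Passages are given as 20 to 25 for ESC and EpiSC, with an upper number that counts up from 26 to 29 over the rsEpiSC arrays. Nothing in the labels says that the replicates of a group were separate cultures, litters or clones, so every p-value below measures the spread between these arrays, which may be technical. In these bulk samples fewer cells of a kind and less RNA per cell cannot be told apart.

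Glycolysis splits glucose to pyruvate in the cytosol. Slc2a1 and Slc2a3 let glucose in, hexokinases trap it as a phosphate, phosphofructokinases commit it to the pathway, and the lower enzymes from aldolase to pyruvate kinase draw energy from it. Lactate dehydrogenase turns pyruvate into lactate, which the Slc16a carriers export, while the Pdk kinases shut off the enzyme complex that would feed pyruvate into mitochondria. Hif1a is the oxygen-regulated subunit of the hypoxia-inducible factor. With oxygen present, the Egln hydroxylases mark that protein for destruction, so that its control is largely at the protein and not at the RNA, and without oxygen it binds a short DNA core and switches on most of the carriers, enzymes and targets listed here, Egln1 and Egln3 included. Pluripotent cells are known for rapid glycolysis, and cells of the primed state, such as EpiSC, are known to rely on it more than naive ESC do.

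The core of the hypoxia response element reads ACGTG or GCGTG. The 250 bases before each RefSeq gene start (mouse build GRCm38.p6) were searched for both on both strands, and 31 of the 33 measured genes had an entry, with 43 starts between them. At least 1 core lay in such a window of 29 of the 31 genes, 93.5%, against 41.5% of all 27025 genes with an entry. Counted by window the shares were 81.4% and 38.6%, beside a median GC content of 60.4% in the members' windows and 52.4% in all. ACGTG alone was found in 64.5% of the members and 18.5% of all genes, and it overlaps the E-box CACGTG, which was in 19.4% and 6.86%. These matches describe letters in a window and not bound sites. The windows of 5 genes whose RNA differed between culture and tissue are printed 5′ to 3′ on the gene's strand, with the cores in capitals, to show where the core lay in genes that read higher and in genes that read lower. Since 29 of 31 members held a core, its presence says nothing about the direction, and of the 2 printed windows of genes higher in culture only that of Slc2a1 holds it. Slc2a1 (chr4:119108495-119108744, plus strand) and Vegfa (the upstream of its starts, chr17:46032378-46032627, minus strand, with no core) read higher in culture. Pdk1 (the upstream of its starts, chr2:71872974-71873223, plus strand), Bnip3 (chr7:138909507-138909756, minus strand) and Egln3 (chr12:54203875-54204124, minus strand) read lower.
Slc2a1: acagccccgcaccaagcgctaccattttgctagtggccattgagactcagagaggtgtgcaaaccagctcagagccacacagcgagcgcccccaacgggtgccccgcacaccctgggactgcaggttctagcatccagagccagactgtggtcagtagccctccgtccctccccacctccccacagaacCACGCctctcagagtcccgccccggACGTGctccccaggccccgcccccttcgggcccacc
Vegfa: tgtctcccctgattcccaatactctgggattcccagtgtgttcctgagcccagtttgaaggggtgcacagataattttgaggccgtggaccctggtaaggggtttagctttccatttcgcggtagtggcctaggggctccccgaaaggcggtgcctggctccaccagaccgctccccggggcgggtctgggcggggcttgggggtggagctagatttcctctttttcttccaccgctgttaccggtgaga
Pdk1: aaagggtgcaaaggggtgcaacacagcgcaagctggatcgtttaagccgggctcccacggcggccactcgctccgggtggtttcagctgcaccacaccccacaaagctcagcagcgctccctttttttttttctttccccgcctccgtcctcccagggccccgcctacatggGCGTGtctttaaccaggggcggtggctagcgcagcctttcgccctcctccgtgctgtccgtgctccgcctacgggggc
Bnip3: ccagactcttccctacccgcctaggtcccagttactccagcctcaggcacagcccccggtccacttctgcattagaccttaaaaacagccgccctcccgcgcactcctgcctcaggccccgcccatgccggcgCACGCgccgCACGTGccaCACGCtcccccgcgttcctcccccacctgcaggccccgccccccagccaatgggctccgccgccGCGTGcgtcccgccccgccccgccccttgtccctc
Egln3: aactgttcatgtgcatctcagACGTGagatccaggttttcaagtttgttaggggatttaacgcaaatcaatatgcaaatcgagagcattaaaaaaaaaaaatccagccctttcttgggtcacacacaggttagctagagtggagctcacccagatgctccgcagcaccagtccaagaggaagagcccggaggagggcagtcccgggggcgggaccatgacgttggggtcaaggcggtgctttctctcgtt

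The 5 cores of Bnip3, a mitochondrial protein of cell death and mitophagy, included a CACGTG that counts once on each strand. Slc2a1 held 2 cores, and Pdk1 and Egln3 1 each. The second Vegfa window, at a start further down the gene, held 2 cores.

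The deposited values were log2 signals. Arrays of a group correlated at 0.943 to 0.988 over all genes. The spread of signals within an array, as the interquartile range, was 2.23 to 2.68 on the tissue arrays and 3.07 to 3.31 on the culture arrays. Summed signal of 9 naive markers was 12.22 to 12.55 (log2) in ESC and at most 8.64 elsewhere, and that of 7 post-implantation epiblast markers was 12.08 to 12.28 in tissue and 8.47 to 9.19 in ESC. All 7 pluripotency markers lay above the array median in ESC, EpiSC and tissue, but 5 of 7 in rsEpiSC E5.75 and 6 of 7 in rsEpiSC E6.5. The Pou5f1 probe set averaged 4.36 in rsEpiSC E5.75 against 5.72 in E5.75 tissue, but Lin28a averaged 8.97 against 6.06. Between these groups, 2 of the 7 were called higher in rsEpiSC and 4 lower, beside 11.5% and 10.0% of all genes. Feeder fibroblast markers (17 genes, summed) read 10.54 to 11.17 in EpiSC, 10.18 to 10.32 in rsEpiSC E5.75, 9.37 to 9.56 in rsEpiSC E6.5, 8.64 to 8.79 in ESC and 8.67 to 8.85 in tissue. Genes of dissociation and heat stress (14, summed) read 11.17 to 11.83 in ESC, 10.81 to 12.17 in EpiSC, 9.46 to 10.13 in rsEpiSC and 8.89 to 9.33 in tissue. Markers of visceral endoderm (16, summed) lay between 8.68 and 9.24 in all groups, and those of trophoblast (12, summed) ran from 9.74 to 10.46 in ESC and EpiSC and from 8.47 to 8.82 elsewhere. The part of these levels in the differences below was not tested.

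For each member, the groups with its highest and its lowest mean were noted. No such count was made over all genes, so the numbers describe the members and are not read as a result about them. Tissue held the lowest mean of 18 of the 33 genes, 12 of them at E5.75, and the highest of 4. Among the highest, rsEpiSC E5.75 held 10, rsEpiSC E6.5 7, and ESC and EpiSC 6 each. ESC had the lowest mean of 9 genes. A moderated F test (limma) over all 6 groups passed at an adjusted p under 0.05 for 20 of the 33 members, beside 32.0% of all genes, with adjusted p-values of 4e-05 for Slc2a3 and 4e-05 for Pfkp. On genes above the median signal alone, 50.3% of genes passed it.

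**Figure D1:**
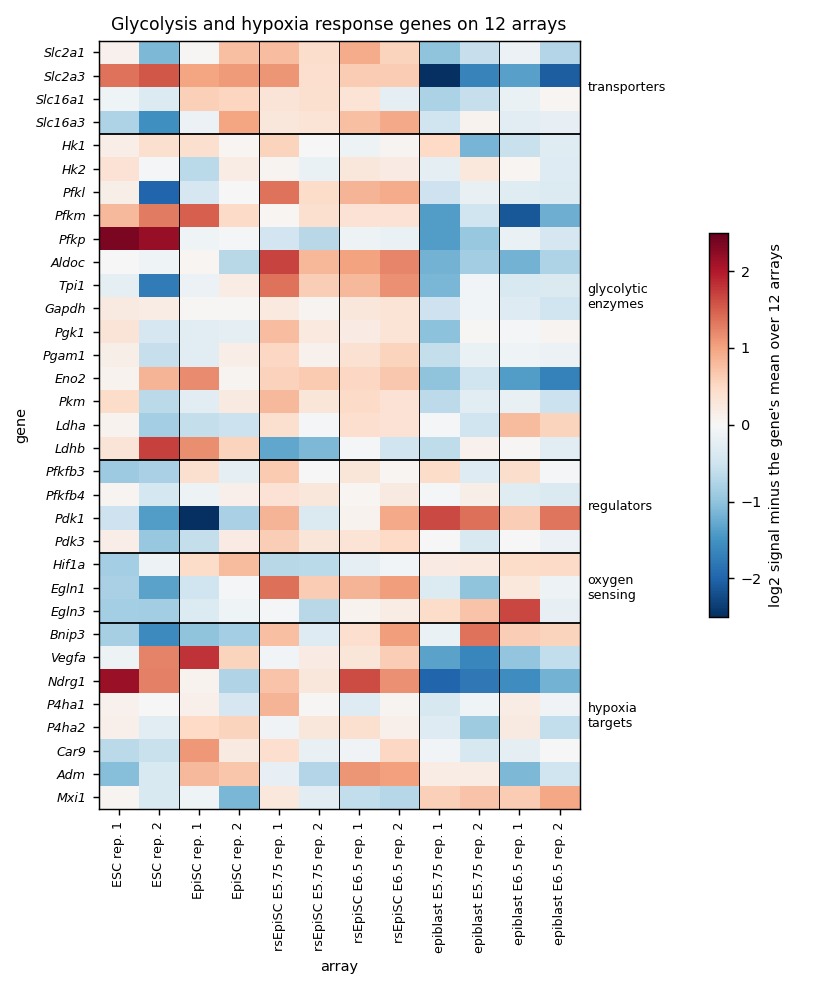
Log2 signal of 33 members (rows, grouped by role) on 12 arrays (columns, 2 per group), shown as each gene's distance from its own mean over the 12 arrays; red is above and blue below that mean. The 4 tissue arrays on the right are blue for most carriers and enzymes and mostly red for Pdk1, Egln3 and Mxi1.

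Among the glucose carriers, Slc2a3, the high-affinity carrier, separated culture from tissue most. Its log2 signals were 10.41 and 10.59 in ESC, 10.03 and 10.10 in EpiSC, 10.14 and 9.45 in rsEpiSC of E5.75, 9.67 and 9.68 in rsEpiSC of E6.5, 6.39 and 7.37 in epiblast E5.75 and 7.69 and 6.99 in epiblast E6.5. Every culture array lay above every tissue array, and the 4 culture groups lay within 1 log2 unit of each other. Slc2a1, the widespread basal carrier, read 11.22 and 9.98 in ESC, 11.13 and 11.85 in EpiSC, 11.88 and 11.55 in rsEpiSC of E5.75, 12.03 and 11.65 in rsEpiSC of E6.5, 10.10 and 10.53 in epiblast E5.75 and 10.96 and 10.38 in epiblast E6.5. Every EpiSC and rsEpiSC array lay above every tissue array, but ESC replicate 2 was the lowest of the 12, so ESC overlapped tissue. Of the lactate carriers, Slc16a3, the export form, read 6.28 and 5.53 in ESC, 6.92 and 8.04 in EpiSC, 7.34 and 7.40 in rsEpiSC of E5.75, 7.80 and 7.99 in rsEpiSC of E6.5, 6.55 and 7.14 in epiblast E5.75 and 6.79 and 6.84 in epiblast E6.5. Both ESC arrays were the lowest of the 12, and all 4 rsEpiSC arrays lay above all 4 tissue arrays. EpiSC replicate 1 fell among the tissue values and replicate 2 above every rsEpiSC array. Slc16a1, which carries lactate and pyruvate either way, ranged from 6.88 to 8.28, with its lowest mean in E5.75 tissue.

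The 3 phosphofructokinase genes, subunits of the committing enzyme, each had another order of groups. Pfkp, the platelet form, read 8.37 and 8.18 in ESC, 5.89 and 5.97 in EpiSC, 5.53 and 5.31 in rsEpiSC of E5.75, 5.88 and 5.85 in rsEpiSC of E6.5, 4.61 and 5.07 in epiblast E5.75 and 5.84 and 5.58 in epiblast E6.5. It marked ESC, with the other groups at least 2 log2 units below on average. Pfkm, the muscle form, read 6.37 and 6.86 in ESC, 7.05 and 6.04 in EpiSC, 5.60 and 5.96 in rsEpiSC of E5.75, 5.92 and 5.92 in rsEpiSC of E6.5, 4.17 and 5.06 in epiblast E5.75 and 3.44 and 4.33 in epiblast E6.5. It was high in all cultures and low in tissue without overlap. Pfkl, the liver form, read 7.66 and 5.53 in ESC, 7.09 and 7.50 in EpiSC, 8.87 and 7.96 in rsEpiSC of E5.75, 8.36 and 8.43 in rsEpiSC of E6.5, 6.99 and 7.32 in epiblast E5.75 and 7.21 and 7.16 in epiblast E6.5. ESC replicate 2 lay far below replicate 1, and the rsEpiSC arrays were the 4 highest. These are different probe sets, so which subunit was the most abundant cannot be read from them.

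Below that step, Aldoc, an aldolase, read 7.02 and 6.90 in ESC, 7.07 and 6.32 in EpiSC, 8.71 and 7.84 in rsEpiSC of E5.75, 8.01 and 8.24 in rsEpiSC of E6.5, 5.83 and 6.14 in epiblast E5.75 and 5.83 and 6.23 in epiblast E6.5. The rsEpiSC arrays were the 4 highest of the 12 and the 4 tissue arrays the lowest, with ESC and EpiSC between. Eno2, an enolase best known from neurons, read 5.23 and 5.99 in ESC, 6.31 and 5.21 in EpiSC, 5.71 and 5.79 in rsEpiSC of E5.75, 5.66 and 5.81 in rsEpiSC of E6.5, 4.14 and 4.63 in epiblast E5.75 and 3.74 and 3.45 in epiblast E6.5. The 4 culture groups had close means, from 5.61 to 5.76, all tissue arrays lay below every culture array, and the EpiSC replicates differed by over 1 log2 unit. Tpi1, triosephosphate isomerase, had its highest mean in rsEpiSC E5.75, 10.62 ± 0.53 (SD, n = 2), and its lowest in ESC, 8.64 ± 1.05.

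Ldhb, the lactate dehydrogenase subunit that favours the return of lactate to pyruvate, read 8.44 and 9.82 in ESC, 9.27 and 8.67 in EpiSC, 6.81 and 6.996 in rsEpiSC of E5.75, 8.07 and 7.61 in rsEpiSC of E6.5, 7.48 and 8.23 in epiblast E5.75 and 8.15 and 7.83 in epiblast E6.5. The rsEpiSC E5.75 arrays were the 2 lowest and ESC and EpiSC the highest. Ldha, the subunit that favours lactate, gave signals of only 4.17 to 5.81 at its single probe set and was highest in E6.5 tissue. At the probe sets used, Gapdh, Pgk1, Pgam1 and Pkm, later enzymes of glycolysis, had narrower ranges of group means than Aldoc, Eno2 and Tpi1. They spanned 0.72 for Gapdh, 1.01 for Pgk1, 0.85 for Pgam1 and 1.01 for Pkm. The other Pgam1 probe set ran more widely, from 5.84 to 8.98 over the arrays. The hexokinases Hk1 and Hk2, which open the pathway, spanned 0.71 and 0.48, and neither passed in any of the 9 comparisons below.

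**Figure D2:**
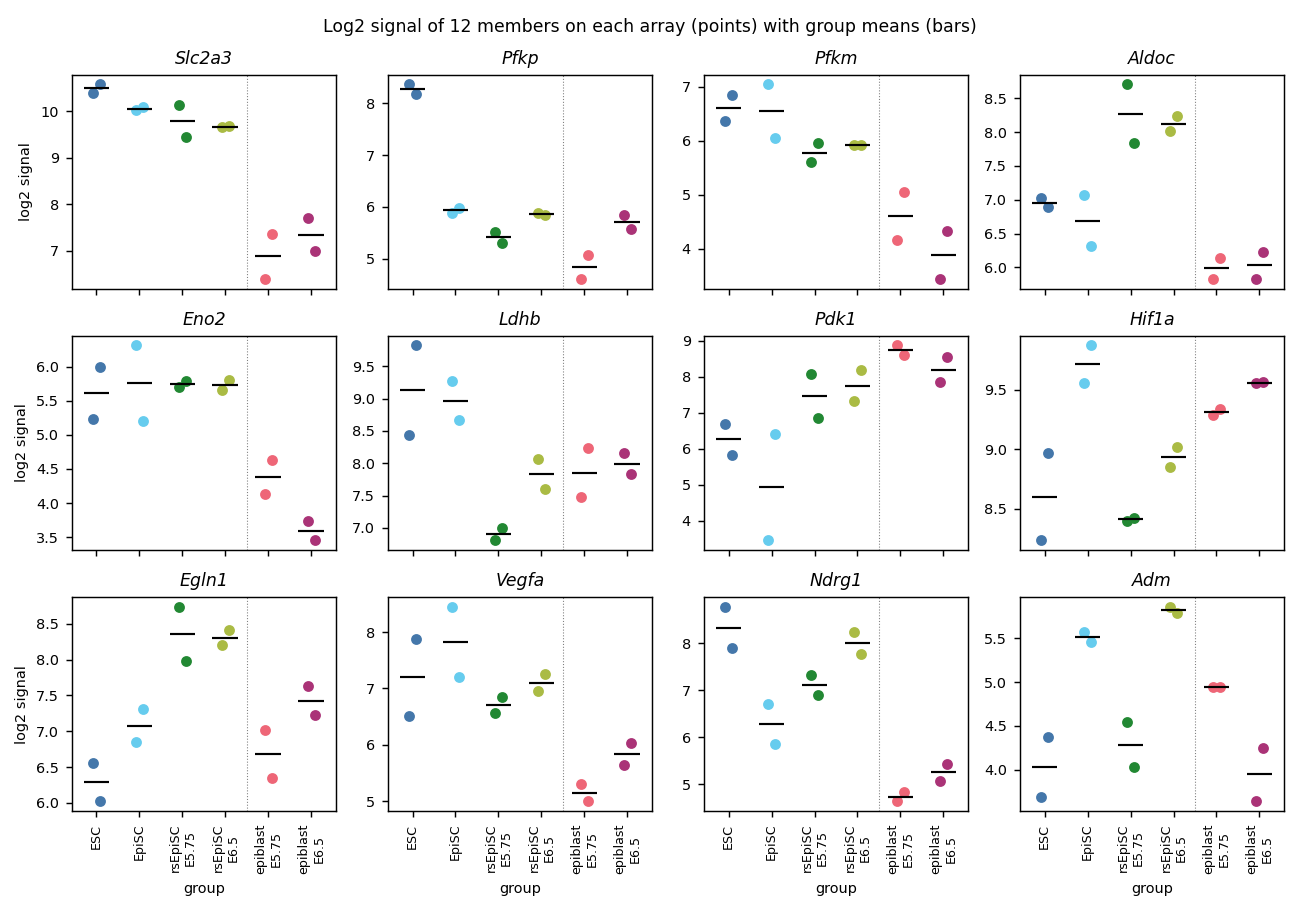
Log2 signal (vertical axis, scaled for each gene) of 12 members on each array (points, 2 per group) with the group mean (bar); the dotted line parts cultures from tissue. Slc2a3, Pfkm, Aldoc, Eno2, Vegfa and Ndrg1 sit higher on all 8 culture arrays than on the 4 tissue arrays, while Pdk1 has its highest means in tissue and Pfkp is highest in ESC.

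Of the flux regulators, Pdk1, the kinase that turns off pyruvate dehydrogenase, ran the other way from the carriers. It read 6.70 and 5.83 in ESC, 3.46 and 6.40 in EpiSC, 8.07 and 6.85 in rsEpiSC of E5.75, 7.32 and 8.18 in rsEpiSC of E6.5, 8.87 and 8.60 in epiblast E5.75 and 7.84 and 8.56 in epiblast E6.5. Both E5.75 tissue arrays lay above every culture array, and the 2 EpiSC arrays were nearly 3 log2 units apart, the widest replicate gap of any member. Pdk3, a further kinase of that complex, and Pfkfb3 and Pfkfb4, which set the level of the activator of phosphofructokinase, had group means that spanned 0.86, 1.19 and 0.66. None of those 3 passed in any of the 9 comparisons.

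Hif1a RNA read 8.23 and 8.97 in ESC, 9.55 and 9.87 in EpiSC, 8.40 and 8.42 in rsEpiSC of E5.75, 8.85 and 9.02 in rsEpiSC of E6.5, 9.29 and 9.34 in epiblast E5.75 and 9.56 and 9.56 in epiblast E6.5. The highest arrays were EpiSC and E6.5 tissue, and the rsEpiSC E5.75 arrays lay below every EpiSC, rsEpiSC E6.5 and tissue array. Egln1, the main oxygen sensor that limits it, read 6.55 and 6.02 in ESC, 6.85 and 7.31 in EpiSC, 8.74 and 7.99 in rsEpiSC of E5.75, 8.20 and 8.41 in rsEpiSC of E6.5, 7.01 and 6.34 in epiblast E5.75 and 7.63 and 7.22 in epiblast E6.5. It was highest in both rsEpiSC groups, without overlap with any other group, and lowest in ESC. Egln3, the sensor that hypoxia itself induces, read 5.86 and 5.84 in ESC, 6.37 and 6.62 in EpiSC, 6.67 and 6.03 in rsEpiSC of E5.75, 6.80 and 6.91 in rsEpiSC of E6.5, 7.17 and 7.44 in epiblast E5.75 and 8.39 and 6.51 in epiblast E6.5. The 3 highest arrays were tissue, while the last tissue array, E6.5 replicate 2, lay among the cultures.

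The hypoxia targets did not share a single pattern: Vegfa and Ndrg1 were higher in culture and Mxi1 in tissue. Vegfa, the growth factor of blood vessels, read 6.52 and 7.88 in ESC, 8.45 and 7.20 in EpiSC, 6.57 and 6.84 in rsEpiSC of E5.75, 6.95 and 7.26 in rsEpiSC of E6.5, 5.30 and 4.999 in epiblast E5.75 and 5.65 and 6.03 in epiblast E6.5. All cultures lay above all tissue arrays, but the replicates of ESC and of EpiSC were each over 1 log2 unit apart. Ndrg1, a stress-induced gene of differentiation, read 8.78 and 7.89 in ESC, 6.70 and 5.86 in EpiSC, 7.32 and 6.90 in rsEpiSC of E5.75, 8.24 and 7.76 in rsEpiSC of E6.5, 4.63 and 4.84 in epiblast E5.75 and 5.08 and 5.43 in epiblast E6.5. Culture and tissue did not overlap, and within culture EpiSC was the lowest and ESC the highest. Bnip3 read 7.51 and 6.74 in ESC, 7.32 and 7.49 in EpiSC, 9.08 and 8.02 in rsEpiSC of E5.75, 8.75 and 9.38 in rsEpiSC of E6.5, 8.17 and 9.68 in epiblast E5.75 and 8.95 and 8.89 in epiblast E6.5. ESC and EpiSC were low together, whereas rsEpiSC overlapped tissue. Mxi1, a partner of Max that opposes Myc, read 9.17 and 8.72 in ESC, 8.98 and 7.95 in EpiSC, 9.37 and 8.82 in rsEpiSC of E5.75, 8.48 and 8.38 in rsEpiSC of E6.5, 9.69 and 9.81 in epiblast E5.75 and 9.74 and 10.06 in epiblast E6.5. All tissue arrays lay above all culture arrays. Adm, the peptide hormone adrenomedullin, read 3.69 and 4.38 in ESC, 5.58 and 5.46 in EpiSC, 4.55 and 4.03 in rsEpiSC of E5.75, 5.86 and 5.79 in rsEpiSC of E6.5, 4.94 and 4.94 in epiblast E5.75 and 3.64 and 4.25 in epiblast E6.5. It was high in EpiSC and rsEpiSC E6.5 and low in ESC, rsEpiSC E5.75 and E6.5 tissue. Car9, a carbonic anhydrase at the cell surface, gave low signals of 3.83 to 5.58. P4ha1 and P4ha2, which hydroxylate collagen, had group means that spanned 0.69 and 1.15.

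The first comparison set the 8 culture arrays against the 4 tissue arrays, as the mean of 4 group means minus the mean of 2. Among the carriers and enzymes every member that passed was higher in culture: 3 of 4 carriers and 7 of 14 enzymes. Of all genes 18.1% were higher and 24.2% lower, and of those above the median signal, fitted alone, 34.3% and 15.9%. The counts by role are not read as a result about these genes. Slc2a3 differed by 2.90 ± 0.21 (adjusted p = 2.53e-06), Pfkm by 1.97 ± 0.26 (adjusted p = 0.000143), Eno2 by 1.72 ± 0.23 (adjusted p = 0.000159) and Aldoc by 1.50 ± 0.21 (adjusted p = 0.000238) on the log2 scale, where ± is the standard error of the fit. Pfkp (1.10), Slc2a1 (0.92), Tpi1 (0.73), Pkm (0.62), Slc16a1 (0.56) and Gapdh (0.53) passed with smaller differences. The hypoxia targets went both ways. Ndrg1 (2.44 ± 0.23, adjusted p = 1.65e-05), Vegfa (1.71 ± 0.28, adjusted p = 0.00066) and P4ha2 (0.61) were higher in culture, whereas Mxi1 (-1.09 ± 0.20, adjusted p = 0.0012) and Bnip3 (-0.89 ± 0.29, adjusted p = 0.0278) were lower. The remaining lower members were Pdk1 (-1.87 ± 0.46, adjusted p = 0.00709), Egln3 (-0.99 ± 0.29, adjusted p = 0.0166) and Hif1a (-0.52 ± 0.15, adjusted p = 0.0155). The value of Pfkp holds its high ESC signal, and its differences from tissue of the same stage were 1.09 for EpiSC and 0.58 and 0.15 for the rsEpiSC lines of E5.75 and E6.5, the last pair short of the threshold. Likewise Bnip3 differed from tissue by -1.52 in EpiSC but by -0.38 and 0.14 in the rsEpiSC lines, of which neither passed. Pdk1 differed by -3.805 in EpiSC and by -1.27 and -0.455 in the rsEpiSC lines, of which neither passed. Hif1a differed by 0.4 in EpiSC, the other direction, which did not pass. In the rsEpiSC lines it differed by -0.90 and -0.625, and only the first passed. Egln3 did not pass against tissue of the same stage in any of these lines. As linear ratios, Slc2a3 was 7.46-fold and Ndrg1 5.41-fold higher.

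In all 18 of 33 members passed, 13 higher and 5 lower, 54.5% beside a background of 42.3% of all genes (18.1% higher and 24.2% lower). The total lies near that background and is not read as a result about these genes. The median difference of the members was 0.46 and that of all genes -0.14, and 26 of the 33 members lay above the median of all genes. Relative to that median, Slc2a3 was 3.04 higher and Pdk1 differed by -1.73. Of the members, 31 had a mean signal above the median gene, and genes in that upper range had a median difference of 0.21 against 0.47 for those 31 members. Fitted on genes of that range alone, 50.3% of genes passed, 34.3% higher and 15.9% lower. The lean of the members' calls towards higher signal in culture is therefore not read as a result about them either.

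After quantile normalization, which makes the spread of signals equal on all arrays, 14 of the 18 remained, 9 higher and 5 lower, and Slc16a1, Tpi1, Pkm and P4ha2 passed no longer. The share of all genes fell as well, to 29.6% (14.2% higher, 15.4% lower). Leaving out each of the 12 arrays in turn, 12 of the 18 passed in every fit. Slc16a1 passed no longer without epiblast E6.5 replicate 1 (largest adjusted p 0.0556), Egln3 passed no longer without epiblast E5.75 replicate 2 or epiblast E6.5 replicate 1 (largest adjusted p 0.0645), and Pkm passed no longer without rsEpiSC E5.75 replicate 1, epiblast E5.75 replicate 1 or epiblast E6.5 replicate 2 (largest adjusted p 0.096). Bnip3 passed in 7 of the 12 fits (largest adjusted p 0.136), P4ha2 in 7 (0.146) and Tpi1 in 3 (0.222). Bnip3 was lost without rsEpiSC E5.75 replicate 2, rsEpiSC E6.5 replicate 1, epiblast E5.75 replicate 2 or either E6.5 tissue array. P4ha2 was lost without ESC replicate 1, rsEpiSC E5.75 replicate 2, rsEpiSC E6.5 replicate 1 or replicate 2 of either tissue group, and Tpi1, which was also lost without a variance trend, kept its call only without ESC replicate 2, rsEpiSC E5.75 replicate 2 or epiblast E5.75 replicate 2. The difference moved to -0.52 for Egln3 without epiblast E6.5 replicate 1, to -0.51 for Bnip3 without epiblast E5.75 replicate 2, to 0.47 for Tpi1 without epiblast E5.75 replicate 1 and to 0.40 for P4ha2 without epiblast E6.5 replicate 2. With every probe set tested, Tpi1, Pkm and Bnip3 were lost. Summed stress genes read higher on the culture arrays than in tissue, with the values given above. Summed feeder markers read higher than in tissue in EpiSC and rsEpiSC but not in ESC. Of the 17 feeder markers, 4 were called higher in culture and 3 lower. The part of both lists in this comparison was not tested.

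**Figure D3:**
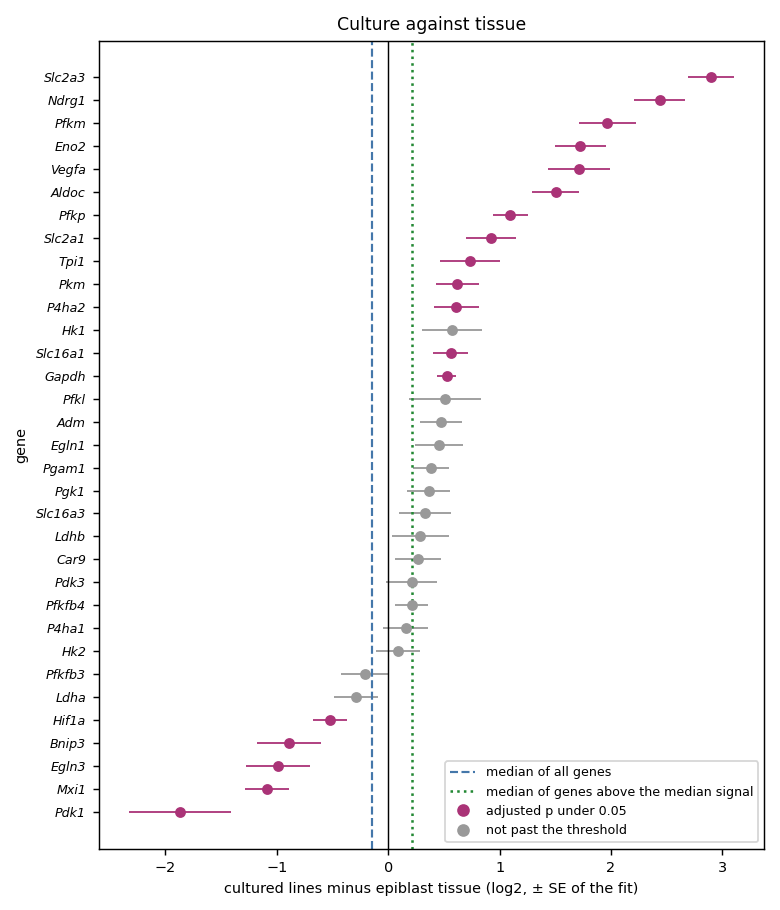
Difference of culture minus tissue (log2, horizontal axis) for each of 33 members (rows), with bars of 1 standard error of the fit; purple points passed at an adjusted p under 0.05. The dashed line is the median of all genes and the dotted line that of genes above the median signal; most members lie to the right of both, and Hif1a, Bnip3, Egln3, Mxi1 and Pdk1 lie to the left.

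Each post-implantation line was next compared with tissue of its own stage. These comparisons share groups with each other and with the one above, so their values stand side by side and are not independent. Slc2a3, Ndrg1 and Eno2 rose in all 3. Slc2a3 was higher than in tissue by 3.19 ± 0.34 (adjusted p = 0.000108) in EpiSC, 2.92 ± 0.34 (adjusted p = 0.000254) in rsEpiSC E5.75 and 2.33 ± 0.34 (adjusted p = 0.0017) in the E6.5 lines. Ndrg1 was higher by 1.54 ± 0.37 (adjusted p = 0.0118), 2.37 ± 0.37 (adjusted p = 0.00138) and 2.75 ± 0.37 (adjusted p = 0.00121) for these lines in turn, and Eno2 by 1.38 ± 0.37 (adjusted p = 0.0201), 1.36 ± 0.37 (adjusted p = 0.0234) and 2.14 ± 0.37 (adjusted p = 0.00432).

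EpiSC differed from E5.75 tissue in 12 members, 9 higher and 3 lower, beside 24.0% of all genes (12.6% higher, 11.4% lower). Among genes above the median signal, fitted alone, the share was 35.3% (25.5% higher, 9.73% lower). The members' share of 36.4% lies near it and is not read as a result about these genes. Vegfa rose by 2.68 ± 0.46 (adjusted p = 0.00196), Pfkm by 1.93 ± 0.42 (adjusted p = 0.00686) and Slc16a1 by 1.26 ± 0.26 (adjusted p = 0.00517). Slc2a1 (1.17), P4ha2 (1.15) and Pfkp (1.09) were higher too. The second probe set of Slc2a1 gave 0.43 ± 0.34 (adjusted p = 0.41 over all probe sets), which missed the threshold. Pdk1 (-3.81 ± 0.75, adjusted p = 0.00415), Bnip3 (-1.52 ± 0.47, adjusted p = 0.0362) and Mxi1 (-1.28 ± 0.32, adjusted p = 0.014) were lower. The EpiSC arrays were far apart for Pdk1: its difference was -2.33 without EpiSC replicate 1, and its second probe set gave -1.27 ± 0.40 (adjusted p = 0.0621 over all probe sets), which missed the threshold. The median difference was 0.44 over the members and -0.19 over all genes. Slc2a3, Slc16a1, Pdk1 and Vegfa passed with any 1 of the 4 arrays left out. Mxi1 passed no longer without EpiSC replicate 2 (largest adjusted p 0.116). Pfkm, Eno2 and Ndrg1 passed no longer without EpiSC replicate 1 or epiblast E5.75 replicate 1 (largest adjusted p 0.07 to 0.173). Slc2a1 and Pfkp passed no longer without EpiSC replicate 2 or epiblast E5.75 replicate 1 (largest adjusted p 0.0626 to 0.226). Bnip3 and P4ha2 passed no longer without EpiSC replicate 1, EpiSC replicate 2 or epiblast E5.75 replicate 2 (largest adjusted p 0.116 to 0.228). The difference moved to 0.82 for Eno2 without EpiSC replicate 1, to -0.77 for Bnip3 without epiblast E5.75 replicate 2 and to -0.76 for Mxi1 without EpiSC replicate 2. Slc2a1 and P4ha2 were lost after quantile normalization and, with Bnip3, when every probe set was tested, and Slc2a1 also without a variance trend. On these 4 arrays alone, where 10.4% of all genes passed, Pfkp, Eno2, Bnip3, P4ha2 and Mxi1 were lost.

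In rsEpiSC E5.75 against the same tissue, 13 members passed, 12 higher and 1 lower, beside 21.5% of all genes (11.5% higher, 10.0% lower). The members' share was 39.4%, and that of genes above the median signal, fitted alone, was 31.6% (23.4% higher, 8.20% lower). Here enzymes after the committing step rose as well: Aldoc by 2.29 ± 0.34 (adjusted p = 0.00113), Tpi1 by 1.59 ± 0.44 (adjusted p = 0.026), Pkm by 1.01, Pgk1 by 1.01 and Gapdh by 0.45. Egln1 was higher by 1.68 ± 0.35 (adjusted p = 0.00623) and Vegfa by 1.56, as were the carriers Slc2a1 (1.40) and Slc16a1 (1.05). The second probe set of Slc2a1, with low signals of 3.75 to 5.54, gave only 0.06 ± 0.34 (adjusted p = 0.927 over all probe sets). Hif1a fell (-0.90 ± 0.24, adjusted p = 0.0224). The members' median was 0.66, against -0.16 over all genes. Most of these calls rested on all 4 arrays: Slc2a3, Aldoc and Ndrg1 passed with any 1 left out. Without either rsEpiSC array or epiblast E5.75 replicate 1, the share of all genes that passed fell as well. Egln1 passed no longer without rsEpiSC E5.75 replicate 1 (largest adjusted p 0.0773). Slc2a1, Slc16a1, Tpi1, Gapdh, Pgk1, Eno2 and Pkm passed no longer without rsEpiSC E5.75 replicate 1, rsEpiSC E5.75 replicate 2 or epiblast E5.75 replicate 1 (largest adjusted p 0.0926 to 0.288). Hif1a and Vegfa passed no longer without rsEpiSC E5.75 replicate 1, rsEpiSC E5.75 replicate 2, epiblast E5.75 replicate 1 or epiblast E5.75 replicate 2 (largest adjusted p 0.114 to 0.158). Without epiblast E5.75 replicate 1 the difference was 0.48 for Pgk1, 0.22 for Gapdh and 1.06 for Tpi1, and without its replicate 2 it was 1.54 for Pgk1 and 0.67 for Gapdh. Gapdh and Pgk1 were lost after quantile normalization, without a variance trend, with every probe set tested and on these 4 arrays alone. Pkm was lost under the first 3 of these settings, Vegfa after quantile normalization and with every probe set, and Tpi1, Eno2 and Slc2a1 with every probe set.

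In rsEpiSC E6.5 against E6.5 tissue, 8 members passed, 7 higher and 1 lower, beside 12.5% of all genes (6.72% higher, 5.78% lower). Fitted on genes above the median signal alone, 21.4% of genes passed (14.8% higher, 6.64% lower). The members' share of 24.2% lies near it and is not read as a result about them. Aldoc rose by 2.09 ± 0.34 (adjusted p = 0.00343), Pfkm by 2.04 ± 0.42 (adjusted p = 0.0099), Adm by 1.88 ± 0.30 (adjusted p = 0.00313) and Gapdh by 0.72, and Mxi1 fell (-1.47 ± 0.32, adjusted p = 0.0135). Slc2a1 differed by 1.18 ± 0.36 (adjusted p = 0.0548), Tpi1 by 1.35 ± 0.44 (adjusted p = 0.0659) and Vegfa by 1.26 ± 0.46 (adjusted p = 0.0916), which missed the threshold. The second probe set of Slc2a1 gave 1.46 ± 0.34 (adjusted p = 0.0359 over all probe sets). Fitted on these 4 arrays alone, 17 members passed, 15 higher and 2 lower, and the share of all genes was 16.5% (9.22% higher, 7.25% lower). The median was 0.48 over the members and -0.10 over all genes. Slc2a3, Aldoc, Ndrg1 and Adm passed with any 1 array left out. Eno2 passed no longer without rsEpiSC E6.5 replicate 2 (largest adjusted p 0.0501). Pfkm passed no longer without rsEpiSC E6.5 replicate 1, rsEpiSC E6.5 replicate 2 or epiblast E6.5 replicate 1 (largest adjusted p 0.0795). Gapdh and Mxi1 passed no longer without rsEpiSC E6.5 replicate 1, rsEpiSC E6.5 replicate 2 or epiblast E6.5 replicate 2 (largest adjusted p 0.0842 to 0.104). Gapdh was also lost without a variance trend.

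Between the lines, the step from ESC to EpiSC changed few members, and in both directions. Pfkp fell by 2.34 ± 0.26 on the log2 scale (adjusted p = 0.000194), and Ndrg1 fell too (-2.05 ± 0.37, adjusted p = 0.0054). The lactate exporter Slc16a3 rose (1.57 ± 0.38, adjusted p = 0.0275), as did Adm (1.49 ± 0.30, adjusted p = 0.0112), Car9 (1.26 ± 0.34, adjusted p = 0.0454) and Hif1a itself (1.11 ± 0.24, adjusted p = 0.0166). Those were 6 of 33 members, 4 higher and 2 lower, beside 6.29% of all genes (3.60% higher, 2.70% lower). With genes above the median signal fitted alone, 12.0% of genes passed (7.72% higher, 4.33% lower). The members' median was 0.15 and that of all genes 0.005. Among those that missed the threshold, Pdk1 differed by -1.33 ± 0.75 (adjusted p = 0.444), Tpi1 by 1.01 ± 0.44 (adjusted p = 0.27) and Pfkfb3 by 0.93 ± 0.35 (adjusted p = 0.181). Of the 14 enzymes, only Pfkp passed, and in this comparison it read lower in the primed line. Pfkp passed in every fit tried, and it was the only member of the 6 to pass in a fit on the 4 arrays alone, where 2.52% of all genes did. Ndrg1 passed no longer without EpiSC replicate 2 (largest adjusted p 0.0568). Hif1a passed no longer without ESC replicate 1 or EpiSC replicate 2 (largest adjusted p 0.126). Slc16a3 passed no longer without ESC replicate 2 or EpiSC replicate 2 (largest adjusted p 0.225). Car9 passed no longer without ESC replicate 1, ESC replicate 2 or EpiSC replicate 1 (largest adjusted p 0.349). Adm passed no longer without ESC replicate 1, EpiSC replicate 1 or EpiSC replicate 2 (largest adjusted p 0.0823). Without EpiSC replicate 2 Slc16a3 differed by 1.01, and without EpiSC replicate 1 Car9 differed by 0.83. In both of these fits the share of all genes that passed fell as well. Car9 was lost after quantile normalization, and Car9 and Slc16a3 with every probe set tested. The summed feeder markers were higher in EpiSC than in ESC by the values above. Of the 17, 4 were called higher and 0 lower, and the means of Thy1, Fbln2 and Col6a3 were lower. Their part was not tested.

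rsEpiSC E5.75 and EpiSC came from embryos of the same day and differed in the additives of the medium. Aldoc was higher in rsEpiSC (1.58 ± 0.34, adjusted p = 0.0235), and Ldhb (-2.06 ± 0.42, adjusted p = 0.0162), Hif1a (-1.30 ± 0.24, adjusted p = 0.0104) and Adm (-1.23 ± 0.30, adjusted p = 0.0452) were lower. These 4 members stood beside 3.87% of all genes (1.56% higher, 2.31% lower), with a median of 0.23 for the members and 0.02 for all genes. With genes above the median signal fitted alone, 7.79% of genes passed (3.05% higher, 4.74% lower). Pdk1 (2.53 ± 0.75, adjusted p = 0.0994) and Egln1 (1.28 ± 0.35, adjusted p = 0.0654) missed the threshold with differences as large as some that passed. None of the 4 calls held with every array left out in turn. In each of these fits the share of all genes that passed fell as well. Aldoc passed no longer without EpiSC replicate 2 or rsEpiSC E5.75 replicate 1 (largest adjusted p 0.281). Ldhb passed no longer without EpiSC replicate 1, rsEpiSC E5.75 replicate 1 or rsEpiSC E5.75 replicate 2 (largest adjusted p 0.151). Hif1a passed no longer without EpiSC replicate 2, rsEpiSC E5.75 replicate 1 or rsEpiSC E5.75 replicate 2 (largest adjusted p 0.0948). Adm was lost without any 1 of the 4 (largest adjusted p 0.376). With every probe set tested, only Hif1a passed. Adm was lost after quantile normalization too, and Aldoc on these 4 arrays alone.

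Against ESC, rsEpiSC E5.75 showed 7 of 33 members past the threshold, 5 higher and 2 lower, beside 10.3% of all genes (5.49% higher, 4.80% lower). With genes above the median signal fitted alone, 19.4% of genes passed (10.9% higher, 8.48% lower). The members' share of 21.2% lies near it and is not read as a result about them. Egln1 (2.08 ± 0.35, adjusted p = 0.00212), Tpi1 (1.98 ± 0.44, adjusted p = 0.0134), Pfkl (1.82 ± 0.53, adjusted p = 0.0488), Slc16a3 (1.47 ± 0.38, adjusted p = 0.0274) and Aldoc (1.31 ± 0.34, adjusted p = 0.0299) were higher. Pfkp (-2.86 ± 0.26, adjusted p = 2.8e-05) and Ldhb (-2.23 ± 0.42, adjusted p = 0.00454) were lower. The members' median was 0.51 and that of all genes 0.02. Egln1, Pfkp and Ldhb passed with any 1 array left out. Tpi1 passed no longer without ESC replicate 2 or rsEpiSC E5.75 replicate 1 (largest adjusted p 0.149). Aldoc passed no longer without ESC replicate 1, ESC replicate 2 or rsEpiSC E5.75 replicate 1 (largest adjusted p 0.316). Slc16a3 and Pfkl passed no longer without ESC replicate 2, rsEpiSC E5.75 replicate 1 or rsEpiSC E5.75 replicate 2 (largest adjusted p 0.191 to 0.355). With any 1 array left out, the share of all genes that passed fell as well. The difference of Pfkl was 0.76 without ESC replicate 2 and 2.89 without ESC replicate 1, and that of Tpi1 was 1.24 without ESC replicate 2. Pfkl was lost after median centring and without a variance trend. Pfkl, Aldoc and Tpi1 were lost on these 4 arrays alone, and together with Slc16a3 when every probe set was tested.

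**Figure D4:**
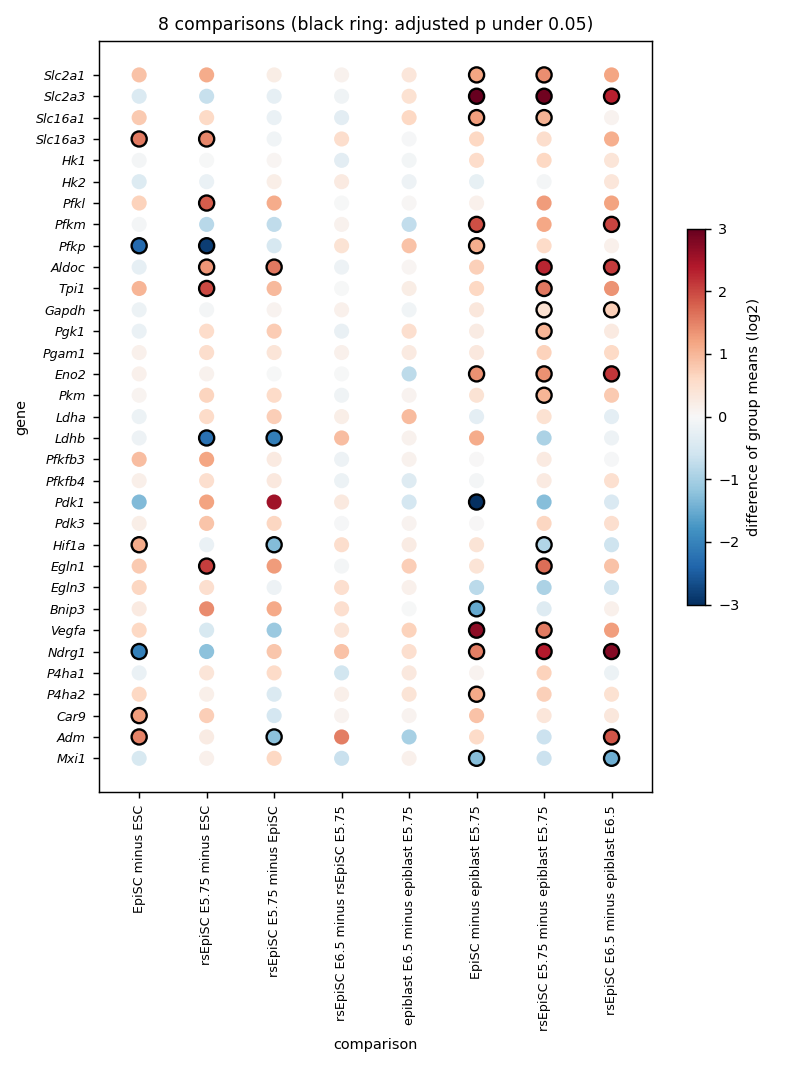
Difference of group means (log2, colour) of 33 members (rows) in 8 comparisons (columns); a black ring marks an adjusted p under 0.05. Rings gather in the 3 columns against tissue, with Slc2a3, Ndrg1 and Eno2 ringed in each, and the 2 columns that compare stages have none.

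Neither comparison of stages called a member. Between rsEpiSC of E6.5 and of E5.75, limma called 0 of 33 members, beside 0.0857% of all genes (0.0631% higher, 0.0225% lower), and 3 had an unadjusted p under 0.05: Adm (1.54 ± 0.30, adjusted p = 0.153), Ldhb (0.94 ± 0.42, adjusted p = 1) and Ndrg1 (0.89 ± 0.37, adjusted p = 1). Between tissue of E6.5 and of E5.75 it called 0 as well, beside 0.0225% of all genes (0.0135% higher, 0.00902% lower), and 4 had an unadjusted p under 0.05. The largest of these were Adm (-0.996 ± 0.30, adjusted p = 0.233), Ldha (0.95 ± 0.32, adjusted p = 0.272) and Pfkp (0.87 ± 0.26, adjusted p = 0.224). No other package was run on these values. In a fit on the 4 rsEpiSC arrays alone, 1 member passed, Adm (adjusted p = 0.0345), beside 0.708% of all genes. The difference between the 2 stage differences was tested as an interaction for each member, and 0 of 33 members passed (2 at an unadjusted p under 0.05, Adm and Slc16a1), beside 0.00902% of all genes.

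Replicates of a group differed over these genes mostly in 1 direction in some groups. On the ESC arrays, replicate 1 read above replicate 2 in 23 of the 33 members, with a median gap of 0.38 against 0.02 over all genes. On the rsEpiSC E5.75 arrays it did so in 25, with a median of 0.44 against 0.02. In E5.75 tissue the gap ran the other way: replicate 1 read above replicate 2 in 9 of the 33, with a median of -0.305 against 0.004 over all genes. There it was lower in 16 of the 18 carriers and enzymes, with a median of -0.46, but higher in 3 of the 4 flux regulators. Over all genes replicate 1 read higher in 51.6% in ESC, 52.2% in rsEpiSC E5.75 and 50.3% in E5.75 tissue. In rsEpiSC E6.5 and E6.5 tissue the members' medians were -0.11 and 0.06. The spread of the members, as a root mean square SD, was 0.58 in ESC and 0.57 in EpiSC, against 0.41 and 0.34 over all genes, and 0.22 in rsEpiSC E6.5 against 0.24. In E5.75 tissue it was 0.46, and over all genes that group had the widest spread, also 0.46. The EpiSC value holds that of Pdk1, whose SD there was 2.085. By this measure, ESC and EpiSC had the largest values among the members and rsEpiSC E6.5 the smallest.

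**Figure D5:**
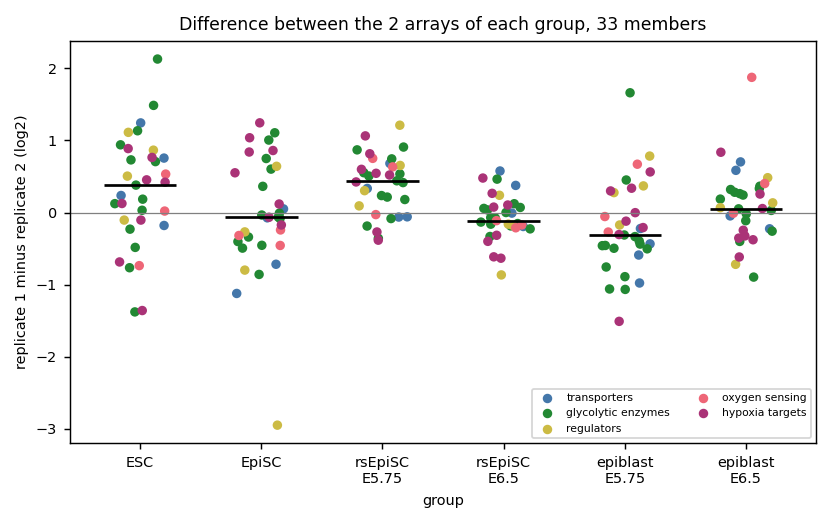
Replicate 1 minus replicate 2 (log2, vertical axis) for 33 members (points, coloured by role) in each of 6 groups, with the median as a bar. The medians lie at 0.38 in ESC and 0.44 in rsEpiSC E5.75, at -0.31 in E5.75 tissue and within 0.12 of 0 in the other groups; the lowest point is Pdk1 in EpiSC.

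Other genes of the same pathways were read from lists written from general knowledge. The lists were chosen with earlier results of these data known, so they are no independent check. Pfkfb2 stands in both the glycolysis and the hypoxia target list, and Tigar in both the glycolysis list and that of metabolic regulators. In culture against tissue, 20 of 37 further hypoxia targets were higher and 1 lower, beside 18.1% of all genes higher and 24.2% lower, with a median of 0.63 against -0.14 over all genes. Among genes above the median signal, fitted alone, 34.3% were higher and 15.9% lower. Ddit4, an inhibitor of mTORC1, led with 3.40 ± 0.23 (adjusted p = 1.74e-06), followed by the glycogen synthase Gys1 (1.86 ± 0.18, adjusted p = 2.21e-05) and the clock repressor Bhlhe40 (1.66 ± 0.19, adjusted p = 6.36e-05), and the glycogen branching enzyme Gbe1 was lower (-1.02 ± 0.23, adjusted p = 0.00475). Ddit4 read 6.93 and 6.99 in ESC, 7.81 and 8.09 in EpiSC, 8.16 and 7.77 in rsEpiSC of E5.75, 8.18 and 8.24 in rsEpiSC of E6.5, 4.25 and 4.43 in epiblast E5.75 and 3.75 and 5.06 in epiblast E6.5, with every culture array above every tissue array. Of 29 other glycolysis and pyruvate genes, 8 were higher and 3 lower, with a median of 0.002. Those 11 of 29 lie near the 42.3% of all genes called and are not read as a result about the list. Tigar, a phosphatase that slows glycolysis, rose by 1.11, Pfkfb2 by 0.88 and Pck2 by 0.87, while the carrier Slc16a7 (-0.72), the testis lactate dehydrogenase Ldhc (-0.72) and Dld (-0.45) were lower. Pfkfb2 averaged 6.77 in ESC and 5.43 in EpiSC, but 4.53 and 4.64 in rsEpiSC against 4.55 and 4.38 in tissue of E5.75 and E6.5. Pck2 averaged 5.74 in rsEpiSC E5.75 against 5.89 in its tissue, and 7.02 in rsEpiSC E6.5 against 5.29. Of 9 pentose phosphate genes, 4 were higher, led by Pgls (1.44 ± 0.20, adjusted p = 0.000236) and Taldo1 (1.05 ± 0.23, adjusted p = 0.0038), and Tktl1 was lower (-0.96). Slc16a7, Ldhc and Tktl1 gave low signals, of 2.48 to 4.16, 3.35 to 4.82 and 2.54 to 4.19, beside array medians of 4.58 to 4.7. The part that the narrower spread of signals on the tissue arrays has in such differences was not tested.

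Among 16 regulators and partners of the hypoxia-inducible factor, 7 were higher in culture and 3 lower, beside the same 18.1% and 24.2% of all genes. Cited2, which competes with the factor for its coactivators, rose by 1.49 ± 0.19 (adjusted p = 0.000119), and those coactivators, Crebbp (-0.85) and Ep300 (-0.50), were lower. Epas1, the second oxygen-regulated subunit, read 7.53 and 6.99 in ESC, 4.43 and 4.55 in EpiSC, 4.08 and 4.56 in rsEpiSC of E5.75, 4.19 and 4.16 in rsEpiSC of E6.5, 4.57 and 4.11 in epiblast E5.75 and 3.92 and 4.10 in epiblast E6.5. It stood out in ESC alone, and EpiSC differed from ESC by -2.76 ± 0.28 (adjusted p = 0.000105) while Hif1a differed by 1.11. Of 13 metabolic regulators of pluripotent cells, 6 were higher in culture and 3 lower, to be read against those shares too. The RNA-binding protein Lin28a was higher (1.42 ± 0.18, adjusted p = 0.000113), and so were Stat3 (1.39) and Cpt1a (1.17), the carrier step of fatty acid oxidation, whereas Myc was lower (-1.96 ± 0.35, adjusted p = 0.00116). Cpt1a was high in ESC and EpiSC and not in rsEpiSC, which differed from EpiSC by -3.12 ± 0.25 (adjusted p = 5.81e-05).

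In EpiSC against ESC, 5 of the 37 further hypoxia targets were higher and 2 lower, beside 3.60% of all genes higher and 2.70% lower. Igfbp3, a binding protein of insulin-like growth factors, led with 4.29 ± 0.44 (adjusted p = 0.000115), and Ak4 (-1.83) was lower. Of the other glycolysis and pyruvate genes, 1 was higher and 3 lower, and Fbp2, an enzyme of the reverse pathway, fell most (-2.60 ± 0.39, adjusted p = 0.00167). In rsEpiSC E5.75 against EpiSC, 3 targets were higher and 4 lower, beside 1.56% and 2.31% of all genes, among them Cxcr4 (2.41 ± 0.41, adjusted p = 0.00606) and Igfbp3 (-4.01 ± 0.44, adjusted p = 0.000398). Pdk4, a sister kinase of Pdk1, was lower there (-2.12 ± 0.52, adjusted p = 0.0452). EpiSC is the group that sets both values of Igfbp3, which averaged 10.19 in EpiSC and 5.90 to 6.88 in the other groups.

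Probe sets of the same gene did not always give the same size. In culture against tissue, a second probe set of Pgam1 gave 2.07 ± 0.17 (adjusted p = 9.02e-05 over all probe sets) where the one used gave 0.38 ± 0.16 (adjusted p = 0.0724). Gapdh has many near-identical copies in the genome and 8 probe sets shared with other symbols, so its small difference is uncertain, and its 2 other probe sets gave 0.80 and 1.66 against 0.53. The second probe set of Pdk1 gave -0.76 ± 0.25 (adjusted p = 0.0398), that of Ndrg1 1.57 ± 0.26, that of Slc2a1 0.67 ± 0.21 and that of Hif1a -0.63 ± 0.18. The second probe set of Mxi1 gave -0.43 ± 0.22, which missed the threshold (adjusted p = 0.15).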

How the data were processed

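The deposited table holds log2 signals of 41345 probe sets on 12 arrays, which the authors made by RMA in oligo, according to the submitters' processing notes. Which versions and settings were used is not given in the sources used here. In the labels, the protocol names a human array, but the probe set identifiers match a mouse table, which was used for names: 23521 probe sets carried 1 symbol, 1814 several and 16010 none. The RefSeq table held 99.18% of the gene identifiers and changed 0 symbols. No low-signal filter was applied.

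Group means were fitted with limma 3.58.1 in R 4.3.3 (lmFit on 6 groups, eBayes with a variance trend, 6 residual and 5.99 prior degrees of freedom). Benjamini-Hochberg adjustment ran over 22180 genes in each of 9 comparisons and in the F test, with a threshold of 0.05. The script was tested on simulated data. Precision is limited by having 2 arrays per group. The members and gene lists were chosen with earlier results of these data known. All members could be named; from the other lists, up to 3 genes per direction and comparison with the largest changes among those past the threshold. Alternatives were a replicate block, leaving out each array, only the compared groups, quantile normalization, median centring, a low-signal filter, every probe set and no variance trend. The comparison of stage differences in Adm was added after seeing the data. Strain and passage fields, which count up from array to array, entered no fit. Protein sequences were not used.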

Additional observations from a re-analysis of the deposited data

Results flagged for a closer look

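Adm differed between the stages in opposite directions in rsEpiSC and in tissue. It read 4.55 and 4.03 in rsEpiSC of E5.75 and 5.86 and 5.79 in rsEpiSC of E6.5, a difference of 1.54, and 4.94 and 4.94 in epiblast E5.75 and 3.64 and 4.25 in epiblast E6.5, a difference of -0.996, with no overlap of the arrays in either pair. The difference between the stage differences was 2.53 ± 0.43 on the log2 scale (limma, adjusted p = 0.0988), which missed the threshold. The adjusted p was 0.0591 to 0.478 over the alternatives. Opposite stage differences without overlap occurred in 8.24% of all genes, and 0.00902% passed the test of the difference.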

How the results depend on the processing

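Over the members named with a value and all alternatives, 1060 values kept their direction and side of the threshold, 180 passed no longer, 41 passed newly and 0 reversed. Fitted on the compared groups alone, 1 member passed in EpiSC against ESC (2.52% of all genes) and 4 in rsEpiSC E5.75 against ESC (7.29%). Likewise 1 passed between the rsEpiSC stages (0.708%), 7 in EpiSC against tissue (10.4%) and 17 in rsEpiSC E6.5 against tissue (16.5%). With every probe set tested, 1 passed in rsEpiSC E5.75 against EpiSC (1.40% of all probe sets), 3 against ESC (4.77%) and 6 against tissue (13.0%). The cause was not tested. With 1 array left out, where the lone array was assumed to vary like the other groups, 3 to 6 members passed in EpiSC against ESC, 0 to 2 in rsEpiSC E5.75 against EpiSC, 3 to 9 against ESC, 0 to 0 between stages, 7 to 12 in EpiSC against tissue, 3 to 13 and 4 to 7 in rsEpiSC E5.75 and E6.5 against tissue, 14 to 20 in culture against tissue and 18 to 23 over the 6 groups. In most of these fits the share of all genes that passed fell as well. The 15 correlations of replicate differences between groups ran from -0.26 to 0.058. They show no strong positive effect shared by arrays of the same replicate number. Whether the numbers in the titles pair the arrays cannot be told from them. With a replicate block, in the order of those comparisons, the counts were 5, 3, 7, 0, 0, 12, 11, 8, 17 and 20, and no count moved by over 1.5 times. The shares of all genes were then 5.81%, 3.51%, 9.64%, 0.0676%, 0.00451%, 22.6%, 20.1%, 11.0%, 41.3% and 30.0%. The block ended the calls of Car9 in EpiSC against ESC, Adm in rsEpiSC E5.75 against EpiSC, Pfkl against ESC, Gapdh and Pgk1 in rsEpiSC E5.75 against tissue and Tpi1 in culture against tissue (adjusted p 0.051 to 0.0615), and Pfkfb3 passed newly in rsEpiSC E5.75 against ESC. Background correction could not be varied, since a value table was used. Low signals, such as those of Car9, Ldha and Adm, limit how small a difference their probe sets can show.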

Other observations

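Across the 6 group means, the members with the closest patterns by Pearson's correlation were Pfkl and Pdk3 (r = 0.99), Aldoc and Pkm (0.98), Pdk3 and Egln1 (0.98) and Pfkl and Tpi1 (0.98), all of which were highest in rsEpiSC E5.75. Hk1 and Egln3 were the most opposed pair (r = -0.95), followed by Pfkp and Pfkfb3 (-0.91) and Vegfa and Mxi1 (-0.91). These are the extremes of 528 pairs over 6 points that share arrays, given as a description. Of the genes named here, Pfkl, Pdk3, Pkm, Hk1, Egln3 and Pfkfb3 did not pass the F test over the 6 groups. Some of their means rest on replicates far apart, such as Pfkl in ESC (7.66 and 5.53).

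Median distance from each gene's own mean, taken over the 14 enzymes, was highest on rsEpiSC E5.75 replicate 1 (0.54) and lowest on epiblast E5.75 replicate 1 (-0.65). Over the 3 oxygen sensing genes it was highest on epiblast E6.5 replicate 1 (0.47) and lowest on the 2 ESC arrays (-0.86 and -0.88).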
